A study of Mus musculus with 3 samples.

Results

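The dermal dendritic cells of mouse dorsal skin numbered 47 in the CON library, 39 in the UV library and 47 in the Rux library, 133 of 33511 cells kept in all. They were 0.390% of kept cells in CON (95% exact interval 0.287% to 0.519%), 0.344% in UV (0.245% to 0.470%) and 0.463% in Rux (0.341% to 0.616%). The 3 intervals overlapped, and they cover counting error only. The order of CON and UV was not kept, since without the members that carried transcripts of other skin cells, described below, the shares were 0.257%, 0.282% and 0.365%. The cells were chosen by their own counts of unique molecular identifiers (UMIs, 1 per captured transcript) among cells in which 300 or more genes were detected and mitochondrial UMIs made up 10% or less. Each carried at least 5 UMIs of H2-Aa, an MHC class II chain, and at least 1 UMI in at least 2 of Flt3, Cd209a, Clec9a, Xcr1, Zbtb46, Ccr7 and Itgax. Cells with 2 or more UMIs of Cd207, the langerin of epidermal Langerhans cells, were left out. Cells in which 3 or more of the 6 macrophage genes C1qa, C1qb, C1qc, Csf1r, Adgre1 and Mrc1 were detected were left out too, as were cells with any UMI of Pdgfra (fibroblasts) or Cd3e (T cells). These values chose the members, so they are given below as a description.

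Dendritic cells take up antigen in tissue, load peptides on MHC molecules and carry them to T cells in lymph nodes. Conventional type 1 cells (cDC1) express the chemokine receptor Xcr1 and the dead-cell receptor Clec9a and cross-present antigen to CD8 T cells, whereas type 2 cells (cDC2) in the dermis often express the lectins Cd209a and Mgl2 and present to CD4 T cells. Cells of either type that mature switch on Ccr7, the receptor that guides them into lymphatic vessels, together with Fscn1, the actin bundler fascin. Flt3 is the growth factor receptor that dendritic cell precursors depend on, and many cytokines that act on these cells signal through JAK kinases and STAT factors.

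Mouse dorsal skin was profiled with droplet 3' single-cell RNA-seq, with 1 library per condition. All animals were wild-type C57BL/6J mice labelled female and 8 weeks old as purchased. The CON mice received no UV. The UV mice were irradiated on alternate days over 12 weeks with UVA (0.60 mW/cm2) and UVB (3.5 mW/cm2). The Rux mice received the same irradiation. Directly after each exposure an ointment with 1.5% ruxolitinib, an inhibitor of JAK1 and JAK2, was put on the skin. The paper lists vehicle for the CON and UV groups. Irradiated skin was taken 24 h after the last exposure. How many mice went into each library is not given in the sources used here. With 1 library per condition no difference between conditions could be tested, so values are given side by side with counting intervals, and a difference between mice, libraries or dissociations cannot be told apart from a difference between treatments. Because whole skin was dissociated, fewer cells in a library may mean fewer in the skin or fewer recovered.

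The libraries went against the label of sex. Xist, which females express from the inactive X chromosome, had 0.116, 0.106 and 0.101 CPM (UMIs of the gene per 1000000 UMIs) in all kept cells of CON, UV and Rux and no UMI in any member, whereas the Y-linked Ddx3y had 110, 116 and 122 CPM. In the members Ddx3y was found in 26, 24 and 28 cells. All 3 libraries held the same kind of discrepancy, so they are not separated by it. The libraries also shared a few cell barcodes, 50 between UV and CON, 40 between Rux and UV and 28 between Rux and CON, but none of these belonged to a member.

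The members carried 691032 UMIs in CON, 559451 in UV and 656080 in Rux. A member had a median of 11037 UMIs in CON (3101 to 89661), 12412 in UV (2606 to 69424) and 12444 in Rux (1517 to 32863), and a median of 2937, 2902 and 3016 genes. The single member with the most UMIs held 12.97% of all member UMIs in CON, 12.4% in UV and 5.01% in Rux, so in CON and UV 1 cell weighed heavily in the sums. Mitochondrial UMIs were similar, with medians of 2.35%, 2.31% and 2.45%. A doublet caller marked 9, 5 and 5 members, or 19.1%, 12.8% and 10.6%, against 9.88%, 9.29% and 8.16% of all kept cells, and these members were retained.

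Transcripts of other skin cells were present in the members and differed between the libraries. The 12 keratinocyte genes summed to 4383 CPM in CON, 1103 in UV and 809 in Rux, and a single cell held 40.6%, 65.96% and 58.0% of those UMIs. Krt14 was the most abundant of these genes in CON, with 1210 CPM. Members with at least 2 UMIs in at least 2 keratinocyte genes numbered 11 in CON, 5 in UV and 7 in Rux. The 9 fibroblast genes summed to 517, 1423 and 1353 CPM, led by Gsn, Dcn and Gsn, with Pdgfra at 0 by the rule. The 9 endothelial genes, led by Pecam1, summed to 340, 357 and 178, and the 8 pericyte and muscle genes to 43.4, 150 and 351. As an alternative chosen after the data were seen, comparisons were repeated without the members that had at least 2 UMIs in at least 2 keratinocyte, endothelial or pericyte genes, which left 31, 32 and 37 members. Without these members 5 of 10 keratinocyte genes were still at least 2-fold lower in UV over CON (7 of 10 with all members) and none of 6 fibroblast genes was 2-fold apart, with a median log2 ratio of 0.05 (5 of 6 higher and 1.07 with all members).

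Transcripts of other lineages in the members ranged from few to many. The 12 macrophage genes outside the rule summed to 168, 198 and 209 CPM and were led by Cd68. Genes of B cells (227, 91.2 and 96.0), of neutrophils (149, 17.9 and 51.8), of mast cells (52.1, 60.8 and 94.5), of melanocytes and Schwann cells (114, 109 and 239) and of erythrocytes (2.89, 32.2 and 29.0) were also low in sum. The T cell, ILC and NK list reached 246, 356 and 389 CPM, most of it Il7r, a receptor chain that dendritic cells can express as well. The monocyte list was higher, with 1929, 1514 and 2193 CPM, but Lyz2, a lysozyme shared by many myeloid cells, made up 1447, 981 and 1146 of it. At least 2 UMIs in at least 2 monocyte genes were found in 31, 25 and 29 members, and the same for plasmacytoid genes in 16, 12 and 16. The Langerhans list summed to 577, 633 and 433, and the plasmacytoid list to 763, 475 and 561, led by Ly6d, Tcf4 and Runx2.

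The background of the markers was measured in cells that should lack them. Since the rule chose the members by these genes, the members' shares are a description. Of the members, 25 of 47 in CON, 26 of 39 in UV and 35 of 47 in Rux carried Flt3, and Itgax was found in 20, 14 and 23. In 710, 1528 and 2176 fibroblast-rule cells (at least 2 UMIs of Pdgfra and 10 of Col1a1, median 10335, 10614 and 14650 UMIs) and in 2202, 703 and 624 keratinocyte-rule cells (at least 20 UMIs of Krt14 and 5 of Krt5, median 23016, 25012 and 20609 UMIs), Flt3 reached at most 0.321%, Cd209a 0.423% and Ccr7 0.569%. Zbtb46, a factor of the conventional dendritic cell lineage, was found in 14.4%, 23.9% and 26.8% of fibroblast-rule cells against 65.96%, 76.9% and 76.6% of members. After each cell was thinned to 3000 UMIs the shares were 4.93%, 9.31% and 8.45% against 27.5%, 36.3% and 36.4%. The C1q genes were at most in 1 member each per library, and Cd207 was at 1 UMI in 1 member of CON and 1 of Rux.

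Macrophage genes were not absent from the members. Mrc1, the mannose receptor, was found in 23, 20 and 15 members and Csf1r, the receptor of macrophage growth factor, in 11, 7 and 23, while the rule allowed up to 2 of the 6. Of 133 members 58 carried Mrc1, and 51 of those also carried Cd209a. Members without any of the 6 genes numbered only 18, 16 and 16.

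Few cells lay near the H2-Aa threshold. Among cells that met every other criterion, 43 in CON, 39 in UV and 46 in Rux had at least 10 UMIs of H2-Aa, whereas 2, 0 and 1 had 5 or 6 and 2, 1 and 2 had 3 or 4 and stayed out. The marker count divided the cells less cleanly. With exactly 2 markers there were 16, 13 and 8 members, and with exactly 1 marker 20, 20 and 25 cells stayed out.

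H2-Aa (chr17:34282744-34287823 of GRCm38, minus strand) itself was at 4959 CPM in CON, 5832 in UV and 8359 in Rux, and the median member had 68, 78 and 125 UMIs of it. Ccr7 (chr11:99144196-99155077, minus strand) was found in 22 of 47 members in CON (46.8%, 32.1% to 61.9%), 21 of 39 in UV (53.8%, 37.2% to 69.9%) and 34 of 47 in Rux (72.3%, 57.4% to 84.4%). After thinning to 3000 UMIs its shares were 35.3%, 45.9% and 65.4%, and its level was 349, 806 and 1146 CPM. Since Ccr7 helped to choose the members, these values describe them and do not show a difference between libraries. Cd209a (chr8:3743397-3748984, minus strand) was found in 28, 21 and 25 members, at 220, 243 and 180 CPM. Clec9a (chr6:129408862-129424763, plus strand) was found in 8, 8 and 4 members (17.0%, 20.5% and 8.51%). Xcr1 (chr9:123852315-123862029, minus strand) was found in 7, 3 and 2 (14.9%, 7.69% and 4.26%). Each of these cDC1 markers was thus found in a minority of members in all 3 libraries.

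The members were divided by which of these markers they carried. Cells with Xcr1 or Clec9a but neither Cd209a nor Ccr7 numbered 7 in CON, 3 in UV and 0 in Rux. In Rux each member with Xcr1 or Clec9a also carried Cd209a or Ccr7, so the 0 follows from the grouping and sets no limit on the share of cDC1. Cells with Cd209a alone numbered 17 (36.2%, 22.7% to 51.5%), 10 (25.6%, 13.04% to 42.1%) and 5 (10.6%, 3.55% to 23.1%), and cells with Ccr7 alone 9 (19.1%), 7 (17.9%) and 11 (23.4%). Over the 3 libraries together the largest group, 52 cells, carried markers of 2 or more of these kinds, although in CON the Cd209a-only group was larger. It held 13 (27.7%, 15.6% to 42.6%), 15 (38.5%, 23.4% to 55.4%) and 24 cells (51.1%, 36.1% to 65.9%). The remaining 1, 4 and 7 members carried only Flt3, Zbtb46 or Itgax. For both the Cd209a-only share and the share with several markers the intervals of CON and Rux overlapped, and the order of the libraries was not kept. With each cell thinned to 3000 UMIs the share with several markers was 20% in CON, 39.3% in UV and 32.4% in Rux, and over members with none of the 6 macrophage genes the Cd209a-only share was 11.1%, 0% and 12.5%.

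**Figure D1:**
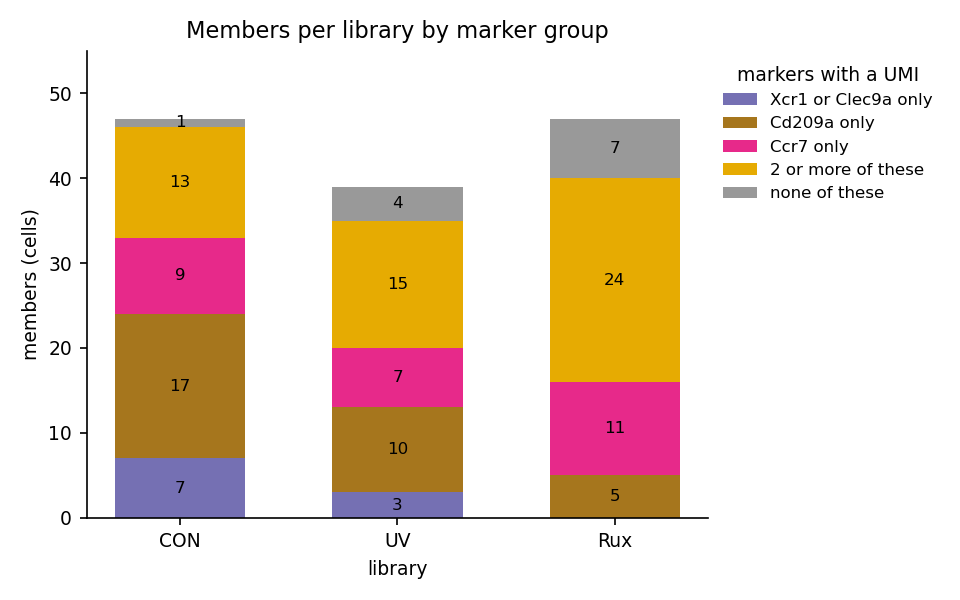
Number of member cells (vertical axis) in each library (horizontal axis), stacked by the markers with a UMI. The Cd209a-only band had 17, 10 and 5 cells in CON, UV and Rux, and the band with 2 or more kinds of marker 13, 15 and 24.

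Genes outside the rule followed the marker groups, as a description of 10, 32, 27, 52 and 12 cells pooled over the libraries. Irf8, the factor that cDC1 need, and Wdfy4, a protein of cross-presentation, were found in all 10 cells of the Xcr1 or Clec9a group, and Irf8 in 6 of 32 Cd209a-only cells. Irf8 was at 545 CPM in the former and 31.0 in the latter. Irf8 was found in 15 of 27 Ccr7-only cells as well, at 404 CPM. Mgl2 and Clec10a, lectins of dermal cDC2, were at 0 in the Xcr1 or Clec9a group and at 592 and 180 CPM in the Cd209a-only group, where they were found in 20 and 22 cells. Itgam, the integrin CD11b, was likewise at 0 in the former and in 22 of 32 cells of the latter.

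Most maturation genes had their highest level in the Ccr7-only cells, 25 of the 32 that passed the filter described below, although several were found in part of these cells only. Fscn1 was found in 14 of these 27 cells at 760 CPM, in none of the 32 Cd209a-only cells and in 4 of 52 cells with several markers. Ccl22, a chemokine that attracts regulatory T cells, was at 1081 CPM in the Ccr7-only cells and 21.7 in the Cd209a-only cells. Il12b, the shared subunit of IL-12 and IL-23, was at 810 and 0, Il4i1, an amino acid oxidase, at 443 and 27.9, and Cacnb3, a calcium channel subunit, at 254 and 0. Samsn1 and Tmem123, also of the maturation list, were each found in 25 of the 27 Ccr7-only cells.

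Ccr7 alone did not mark this state. Of 133 members 77 carried Ccr7 and 74 Cd209a, and 40 carried both. Fscn1 was found in only 22 members, 18 of them with Ccr7 and 3 with Cd209a. Among the same 22 cells 16 carried Cacnb3, 11 Il12b and 10 Apol7c, which were found in 20, 17 and 12 members in all. Fscn1 was found in 8, 7 and 7 members of CON, UV and Rux. The number of Fscn1 cells thus did not follow the number of Ccr7 cells across the libraries.

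**Figure D2:**
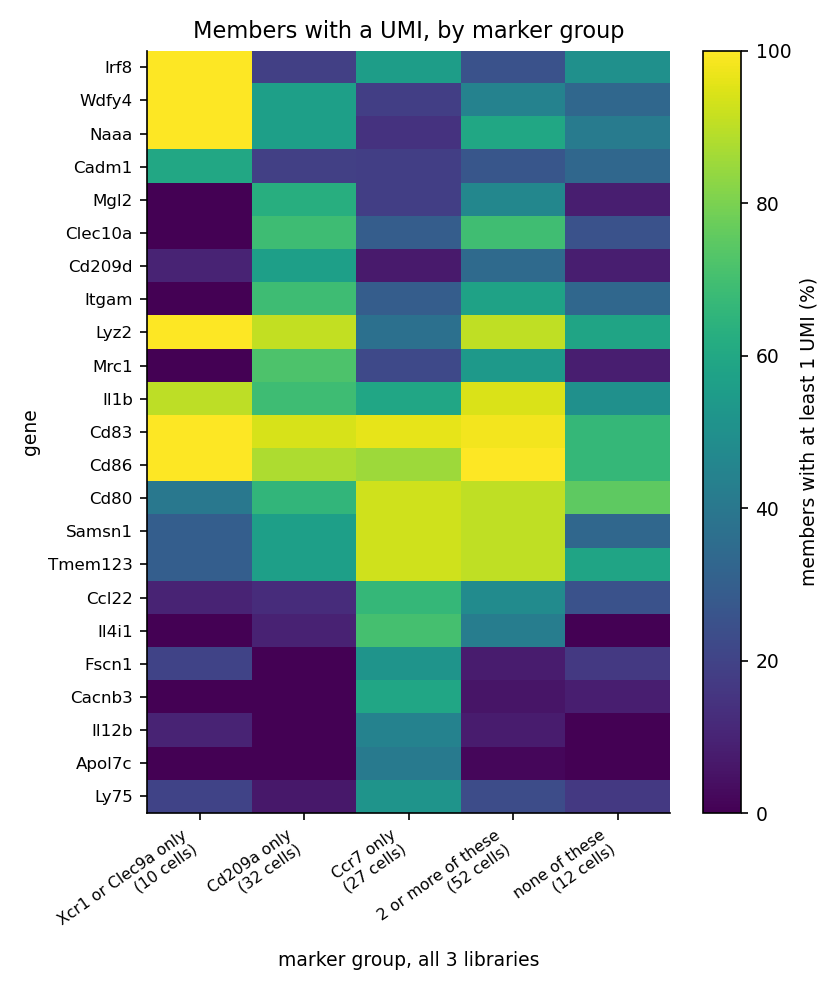
Share of members with at least 1 UMI of each gene (rows, colour in percent) in the 5 marker groups pooled over the 3 libraries (columns, with cell numbers). Irf8, Wdfy4 and Naaa were found in all 10 cells of the Xcr1 or Clec9a group, and Fscn1, Cacnb3, Il12b and Apol7c in 14, 16, 12 and 11 of 27 Ccr7-only cells and in none of the 32 Cd209a-only cells.

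For levels between libraries the UMIs of all members were summed per library. A total of 5177 genes passed a filter of at least 50 UMIs over the 3 libraries and a mean of at least 20 CPM, with the rule's own genes left out. Genes at least 2-fold higher in UV than in CON numbered 202 (3.9%) and genes at least 2-fold lower 282 (5.45%), and the median log2 ratio of all genes was -0.05. For Rux over UV 173 genes (3.34%) were at least 2-fold higher and 359 (6.93%) lower, with a median of -0.08, and for Rux over CON 238 (4.6%) and 547 (10.6%), with a median of -0.15. The first 2 comparisons share the UV library, so a high or low value in UV moves both in opposite directions. Intervals on log2 ratios below are exact 95% counting intervals, which do not hold the spread between cells or mice. Genes named as past the 2-fold line within a list were named after their values were seen. For alternatives that dropped members, list counts were taken over the genes that passed this filter with all members. The share of all those genes past 2-fold was not computed there, so such list counts have no background beside them. In 1 alternative the marker groups were weighted as in CON. Rux had 0 cells in the Xcr1 or Clec9a group against 7 in CON, so for Rux this weighting could not match CON in full.

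With all members antigen presentation genes were close in CON and UV. None of the 15 MHC class II genes was 2-fold apart in UV against CON, with a median log2 ratio of 0.12. Without members that carried skin-cell transcripts 1 was lower (median -0.13), and without members marked as doublets the median was 0.35. Cd74, the invariant chain, was at 10706, 10989 and 14245 CPM in CON, UV and Rux, and H2-Ab1 at 5945, 6126 and 7909. For H2-Ab1 the log2 ratio was 0.04 (-0.02 to 0.11) in UV over CON and 0.37 (0.31 to 0.43) in Rux over UV. H2-Eb1 was at 4770, 5414 and 7334. Over UV the class II list had a median of 0.29 in Rux, with 2 of 15 genes 2-fold lower, March1, the ligase that removes class II from the surface, and H2-Oa, an inhibitor of peptide loading, both with under 25 UMIs in UV. With the marker groups weighted as in CON, as far as Rux had cells of them, none of the 15 was lower, with March1 at -0.20 and H2-Oa at -0.08. The 14 MHC class I genes had medians of 0.13 in UV over CON and -0.36 in Rux over UV. In UV over CON 2 of the 14 were higher without members that carried skin-cell transcripts, and 1 without members marked as doublets (median 0.44). Tap1, a peptide transporter, was at 86.8, 107 and 45.7 CPM. With all members it was the only 1 of the 14 past 2-fold, by -1.22 (-1.91 to -0.57) in Rux over UV. With equal weight per cell, and also without the members that carried skin-cell transcripts, 4 of the 14 were lower in Rux over UV and none higher.

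Of the subset genes, 0 of 9 on the cDC1 list were 2-fold apart in UV over CON and 1 was lower in Rux over UV, with medians of 0.06 and -0.23. On removal of members with skin-cell transcripts 4 of the 9 were lower in Rux over UV (median -0.91), and without members marked as doublets 3 were higher and 1 lower in UV over CON (median 0.51). The gene lower in Rux with all members was Naaa, a lipid amidase, at 234, 181 and 89.9 CPM. Irf8 was at 158, 252 and 206, with 17, 15 and 18 cells. On the cDC2 list 1 of 16 genes was higher and 2 were lower in UV over CON (median -0.11), and 1 was higher in Rux over UV (median 0.40). Clec10a was at 49.2 CPM in 18 CON members, 157 in 20 UV members and 198 in 31 Rux members. Its level in UV was 1.66 log2 units above CON (1.09 to 2.29). Mgl2 went the other way, from 463 in CON to 254 in UV and 192 in Rux, with -0.86 (-1.16 to -0.58) in UV over CON. Over members with none of the 6 macrophage genes 6 of the 16 were lower in UV over CON and 8 higher in Rux over UV, so the counts of this list depended on which members were kept.

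Irf4, a factor of cDC2 and of Ccr7-dependent migration, had sparse counts. It had 26 UMIs in 12 CON members, 6 UMIs in 6 UV members and 68 UMIs in 20 Rux members. The log2 ratio was -1.72 (-3.38 to -0.50) in UV over CON and 3.17 (2.08 to 4.77) in Rux over UV. UV was thus the lowest of the 3 libraries for Irf4. Of the 68 UMIs in Rux 29.4% lay in 1 cell, and without the cell with the most Irf4 UMIs in each library the ratio of Rux over UV was 2.91. The 11 lineage factors as a list held 1 lower gene in UV over CON and 1 higher in Rux over UV, Irf4 both times. In UV over CON 4 of the 11 were higher over members with no macrophage gene (median 0.64) and 3 without doublets (median 0.47), against none with all members.

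Some maturation genes were higher in UV than in CON. Of 32 genes on the list 7 were at least 2-fold higher, against 3.9% of all genes, and none lower. Ccr7 helped to choose the members, and 25 of the 32 genes were highest in the Ccr7-only cells. This count is therefore a description and does not show a difference between libraries. Of the 32 ratios 24 lay above 0 and 8 below, with a median of 0.39. Cd80, a costimulatory ligand of CD28, was at 162 CPM in 34 CON members, 345 in 30 UV members and 354 in 42 Rux members. Its log2 ratio was 1.09 (0.75 to 1.44) in UV over CON and 0.04 (-0.25 to 0.32) in Rux over UV. Cd80 was also higher in UV than in CON within each of the Cd209a-only cells (313 against 135), the Ccr7-only cells (310 against 152) and the cells with several markers (455 against 266). In CON 1 Ccr7-only cell held 89661 of the 197296 UMIs of its group, so the value of 152 depends heavily on that cell. Ccl22 was at 165, 416 and 567 CPM, 1.33 (1.01 to 1.67) higher in UV than in CON. Il4i1 was at 62.2, 138 and 279 and lay just past 2-fold in Rux over UV, by 1.01 (0.63 to 1.42). This did not hold without skin-cell members, where the ratio was 0.71, and the ratio was 0.64 to 1.49 over the alternatives run for single genes. The others past 2-fold in UV were Apol7c, Pdcd1lg2, the ligand PD-L2, Il12b and Serpinb6b.

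Several of these ratios rested on few cells. Il12b was at 95.5, 295 and 276 CPM but in only 6, 5 and 6 members, and 62.4% of its UV UMIs lay in 1 cell. Apol7c was found in 2, 6 and 4 members, with 9, 97 and 77 UMIs. Fscn1 was at 165, 225 and 189, a log2 ratio of 0.45 (0.07 to 0.83) in UV over CON. Cd86, the second CD28 ligand, was at 544 CPM in CON, 593 in UV and 908 in Rux, so that it was close in CON and UV and 0.61 (0.42 to 0.81) higher in Rux over UV. For Rux over UV the list as a whole had 1 gene higher and 1 lower, Spint2, a protease inhibitor. The median of the list was 0.08, or -0.11 with each cell given equal weight, where none was higher and 3 were lower. With the marker groups weighted as in CON none was higher and 5 were lower (median -0.29), so no direction was kept. The keratinocyte list lay opposite to the maturation list in UV over CON, with 7 of 10 genes lower, and the fibroblast list with it, with 5 of 6 higher. Without the members that carried skin-cell transcripts 11 of the 32 maturation genes were higher and 2 lower in UV over CON, with a median of 0.72. This removal was chosen after the data were seen, and whether skin-cell transcripts bear on these ratios was not tested. With members marked as doublets left out 14 were higher, and over members with none of the 6 macrophage genes 16. Among all genes that passed the filter anew in these smaller sets, 192 of 4115 and 178 of 2552 were higher. The larger list counts may come from fewer cells, which was not tested.

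**Figure D3:**
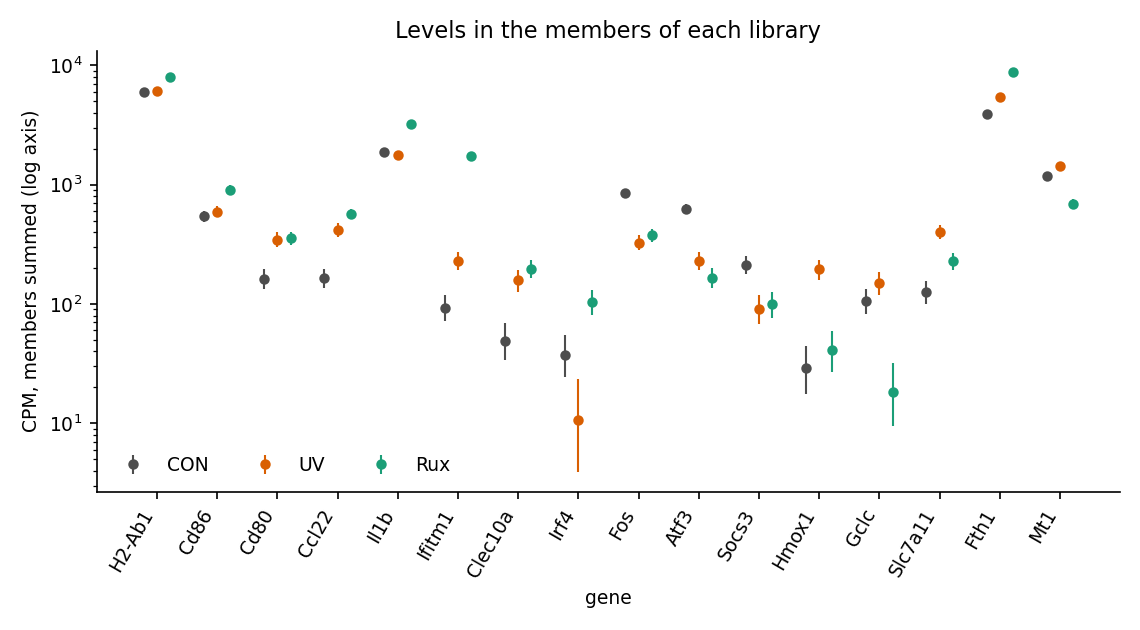
Levels of 16 genes in the members of each library, in CPM over the summed members on a log axis, with exact 95% counting intervals as bars. Cd80 and Ccl22 were lowest in CON, Irf4 was lowest in UV, Fos, Atf3 and Socs3 were highest in CON, and Hmox1 was highest in UV (195 against 28.9 in CON and 41.2 in Rux).

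Cytokines and chemokines differed in which library held the high value. Il1b, which encodes interleukin 1 beta, was at 1867 CPM in CON, 1766 in UV and 3208 in Rux. It differed little between UV and CON, by -0.08 (-0.20 to 0.04), and was 0.86 (0.75 to 0.97) higher in Rux than in UV. The median member had 12.6, 7.74 and 21.1 UMIs of Il1b per 10000, and the ranges over cells overlapped widely. Over 9 cytokine genes 2 were higher and 1 lower in UV over CON (median -0.08) and 2 higher in Rux over UV (median 0.73). Over members with none of the 6 macrophage genes 5 were higher and 1 lower in UV over CON (median 1.34). In Rux over UV 2 were then higher and 2 lower (median 0.17). Without members that carried skin-cell transcripts 2 were higher and 1 lower in Rux over UV (median 0.32). With all members Csf1, macrophage growth factor, was 1 of the 2 higher genes both times. However, 82.8% of its Rux UMIs came from 1 cell, and without the top cells its ratio of Rux over UV was -0.04.

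Of 13 chemokine genes 7 were at least 2-fold higher in UV than in CON and none lower, against 3.9% and 5.45% of all genes. The median was 1.04, or 0.42 with each cell given equal weight. Ccl4 was at 240, 694 and 639 CPM in 13, 12 and 15 members, and Cxcl1 at 92.6, 402 and 389 in 18, 23 and 36 members. Cxcl2 was at 260, 534 and 954. These 3 chemokines, which draw monocytes and neutrophils, were lowest in CON. In members without skin-cell transcripts Ccl4 was at 1.08 in UV over CON, but Cxcl1 at 0.66 and Cxcl2 at 0.26. Ccl2 was at 126, 293 and 546, but 73.8% of its UV UMIs were in 1 cell, and without the top cells its ratio of UV over CON was -0.24. Without the members that carried skin-cell transcripts 5 of the 13 were higher and 1 lower, and the median dropped to 0.26. Ccl5 was at 806, 1142 and 652, with 0.50 (0.34 to 0.67) in UV over CON, or -0.01 with equal weight per cell. In Rux over UV 1 of the 13 was higher, Cxcl3, with 28 and 86 UMIs, and the median was 0.44. With the marker groups weighted as in CON, as far as Rux had cells of them, this turned around. None was then higher and 4 were lower, with a median of -0.59 and Cxcl3 at 0.11.

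Among 7 chemokine and migration receptors outside the rule Gpr183, a receptor for oxysterols that positions dendritic cells, was at 99.9 CPM in 17 CON members, 214 in 20 UV members and 396 in 28 Rux members. It was 1.10 (0.66 to 1.55) higher in UV than in CON and 0.88 (0.57 to 1.21) higher in Rux than in UV. With the marker groups weighted as in CON its ratio of UV over CON was 0.25. Of the others 3 were at least 2-fold higher in Rux than in UV, namely Ccr1, Ccrl2 and Cxcr4, with 53, 39 and 72 UMIs in Rux. The list had a median of 0.88 in Rux over UV and 0.00 in UV over CON, where Ccrl2 was 2-fold lower. The median of Rux over UV dropped to 0.40 without skin-cell members, where 1 gene was lower, to 0.43 without doublets and to 0.46 with equal weight per cell. Cxcr4 was at 1.02 with all members but at 0.36 without skin-cell members, and Ccrl2 at 0.66 with the marker groups weighted as in CON. Of 8 pattern recognition receptors that passed the filter none was apart in UV over CON and 2 were higher in Rux over UV. Of these Clec4e, the lectin Mincle, was at 81.0, 100 and 284 CPM, and Clec4n, the lectin dectin 2, had 8, 13 and 38 UMIs. Over members with none of the 6 macrophage genes 5 of the 8 were higher in Rux over UV.

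None of the 20 genes on the JAK-STAT list was 2-fold apart in Rux over UV, with 7 above and 13 below 0 and a median of -0.23. This count depended on the cells kept. After removal of members that carried skin-cell transcripts 5 of the 20 were lower and none higher (median -0.34), with equal weight per cell 3 were lower, and with the marker groups weighted as in CON 2 were lower (median -0.48). Jak1, a target of ruxolitinib, was at 274, 195 and 143 CPM, with -0.49 (-0.84 to -0.14) in UV over CON and -0.44 (-0.86 to -0.03) in Rux over UV. Stat3 was at 365, 404 and 322. Stat5b was at 39.1, 130 and 86.9, a ratio of 1.72 (1.08 to 2.43) in UV over CON, and with all members no other list gene was at least 2-fold higher in UV. Over members with none of the 6 macrophage genes 5 of the 20 were higher and 2 lower in UV over CON (median 0.52 against 0.03 with all members), and without doublets 3 were higher and 4 lower. Socs3, a feedback inhibitor that STAT3 induces, was at 213 in 33 CON members, 91.2 in 21 UV members and 99.1 in 22 Rux members. It was -1.21 (-1.71 to -0.75) in UV over CON and 0.12 (-0.43 to 0.68) in Rux over UV, and Socs6 was also lower in UV, with 28 and 11 UMIs. Of 21 receptor chains that signal through JAKs 2 were higher in UV over CON, Il2ra and Csf2rb2, and in Rux over UV 1 was higher, Il2rg, and 2 lower, Osmr and Lifr, with medians of 0.04 and -0.02. Over members with no macrophage gene 5 of these 21 were higher and 1 lower in UV over CON, and without skin-cell members none was higher and 1 lower in Rux over UV, with Il2rg at 0.97.

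Only 14 of 33 measured interferon-stimulated genes passed the filter. The summed level of all 33 was 4072, 4031 and 6024 CPM in CON, UV and Rux, led by Ifitm2. In UV over CON 2 of the 14 were higher and 2 lower (median 0.09). Over members with no macrophage gene 5 were higher and 1 lower (median 0.67), and the median was -0.23 with equal weight per cell, so no direction was kept. In Rux over UV 1 was higher and 5 lower (median -0.35, or -0.01 with each cell given equal weight and 0.19 with no macrophage gene). Ifitm1, a membrane protein that restricts virus entry, was at 92.6 CPM in CON, 231 in UV and 1721 in Rux. It was found in 13, 22 and 25 members, and its highest cell had 13, 21 and 110 UMIs. In Rux over UV Ifitm1 was 2.89 log2 units higher (2.64 to 3.17), and no member held more than 9.74% of its Rux UMIs. In the Cd209a-only cells Ifitm1 was at 211 in UV and 2275 in Rux, in the Ccr7-only cells at 133 and 2663, and in the cells with several markers at 252 and 1448. Ifitm2 and Ifitm3, its neighbours in the family, were at 1486, 1296 and 1988 and at 929, 1053 and 1251.

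The 5 interferon-stimulated genes lower in Rux than in UV were sparser. Iigp1 had 55, 11 and 0 UMIs, so it was at least 4.30-fold lower in Rux than in UV against a floor of 3 UMIs. Rsad2 had 24, 50 and 5 UMIs, with 82.0% of the UV UMIs in 1 cell. Parp14 had 63, 45 and 14 UMIs in 24, 16 and 8 members, and Trim30a and Sp100 were the other two. Isg15, a ubiquitin-like modifier, was at 168, 206 and 169 CPM and differed by less than 2-fold both times. The interferon list therefore held opposite values for Ifitm1 and for these 5. Without the members that carried skin-cell transcripts only 2 genes of the list were 2-fold lower and 2 higher, and Ifitm1 was at 3.05 in Rux over UV.

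Some immediate-early genes were lower in UV than in CON. Of 32 genes 8 were at least 2-fold lower, against 5.45% of all genes, and none higher. Of the 32 ratios 25 lay below 0 and 7 above, with a median of -0.41. Fos was at 854 CPM in 43 CON members, 327 in 29 UV members and 378 in 36 Rux members. Its ratio was -1.38 (-1.63 to -1.14) in UV over CON and 0.21 (-0.07 to 0.49) in Rux over UV, so that UV and Rux lay close together below CON. Atf3, a stress factor, was at 622, 231 and 166, and Jun at 537, 259 and 207. The other 5 were Klf4, Nr4a1, Fosb, Egr1 and Ier2. In Rux over UV 1 of the 32 genes was lower, Egr3, with 22 and 9 UMIs, and the median was -0.10. Egr3 was at -0.55 without skin-cell members, and no gene of the list was lower without doublets, without the member with the most UMIs or with equal weight per cell. Without the members that carried skin-cell transcripts 7 of the 32 were lower in UV over CON and none higher, but these were not all the same genes, since Atf3 was then at -0.53, Klf4 at -0.50 and Nr4a1 just short of 2-fold. Over members with none of the 6 macrophage genes 5 were lower and 4 higher. Of 11 heat shock chaperones 1 was lower in each comparison, Hspb1 and Hspd1, with medians of -0.12 and -0.06, and without the members that carried skin-cell transcripts 4 were lower in UV over CON and 3 higher in Rux over UV.

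**Figure D4:**
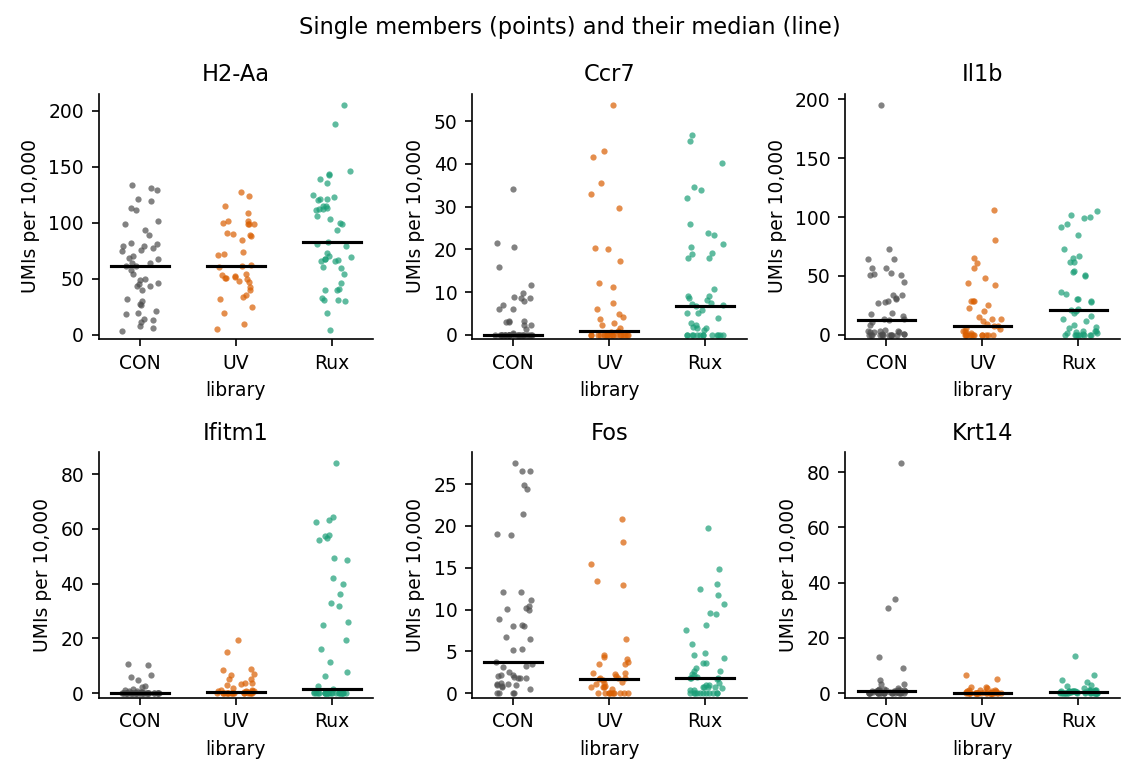
UMIs per 10000 in every member (points) of each library (horizontal axis) with the median (line), for H2-Aa, Ccr7, Il1b, Ifitm1, Fos and Krt14. H2-Aa was found in every member, Ifitm1 had values up to 83.9 in Rux against 10.7 in CON and 19.5 in UV, and Krt14 reached 83.1 in a CON member.

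A part of the oxidant response genes was highest in UV. Of 21 antioxidant and haem genes 5 were at least 2-fold higher in UV than in CON, against 3.9% of all genes, and none lower. The median was 0.46. In Rux over UV 6 of the 21 were at least 2-fold lower, against 6.93% of all genes, and none higher, with a median of -0.35. Hmox1, which degrades haem, was at 28.9 CPM in 9 CON members, 195 in 11 UV members and 41.2 in 7 Rux members. It was 2.72 (2.05 to 3.52) higher in UV than in CON and -2.22 (-2.91 to -1.62) in Rux over UV. Slc7a11, the cystine importer, was at 126, 399 and 227, and Gclm, a subunit of the enzyme that starts glutathione synthesis, at 42.0, 130 and 42.7. The catalytic subunit Gclc was at 106, 150 and 18.3, with -2.99 (-4.05 to -2.16) in Rux over UV. Hmox1 was more abundant in macrophage-rule cells of all 3 libraries (1243, 1097 and 570), and its UMIs in the members were spread over few cells. Without the members that carried skin-cell transcripts 4 of the 21 genes were higher in UV over CON and none lower, and in Rux over UV 6 were lower and 1 higher.

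Of the 21 genes 17 lay above 0 in UV over CON and 13 below 0 in Rux over UV. Fth1, the ferritin heavy chain and the most abundant gene of the list, was at 3932, 5396 and 8763 CPM, highest in Rux, and the summed level of the list, which holds Fth1, was 11037, 14950 and 17108 CPM. The metallothionein Mt1 was at 1178, 1441 and 684 and its relative Mt2 at 538, 527 and 261. Mt1 was -1.07 (-1.24 to -0.91) in Rux over UV. Of 6 p53 targets and repair genes that passed the filter none was apart in UV over CON, and Gadd45a was lower in Rux over UV. None of the 6 was lower there without skin-cell members, without doublets, without the member with the most UMIs, with the marker groups weighted as in CON or with equal weight per cell.

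In the lysosome list none of 20 genes was 2-fold apart in UV over CON (median 0.10), and 2 were higher in Rux over UV (median 0.48). The latter median was 0.07 with the marker groups weighted as in CON, as far as Rux had cells of them. The 2 higher genes were the proteases Ctsd, at 79.6, 59.0 and 148 CPM, and Ctsa, at 81.0, 80.4 and 163. Cst3, a cysteine protease inhibitor abundant in dendritic cells, was at 4929, 6038 and 6336. Of 10 cell cycle genes 1 was higher in UV over CON and 3 lower in Rux over UV, with medians of -0.16 and -0.89. These values were not stable. With members that carried skin-cell transcripts left out the medians were 0.36 and -1.33, with 7 of 10 lower in Rux over UV, over members with none of the 6 macrophage genes they were -1.07 and -1.47, and with the marker groups weighted as in CON the median of Rux over UV was -0.22. Among these genes Ube2c, a mitotic ubiquitin enzyme, had 12, 36 and 9 UMIs in only 5, 7 and 3 members. None of 19 ribosomal genes was apart in either comparison, with medians of 0.03 and 0.01.

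Rux over CON shares 1 library with each of the other comparisons and is given for completeness. Here 7 of 32 maturation genes were at least 2-fold higher and none lower, against 4.6% and 10.6% of all genes. As for UV over CON, this count describes members that Ccr7 helped to choose. Genes of other skin cells moved as well. All 10 keratinocyte genes were lower (median -2.47), and 3 of 6 fibroblast genes (median 1.08) and 3 of 3 pericyte and muscle genes (median 4.04) were higher. Of 10 cell cycle genes 6 were lower. Of 13 chemokines 7 were higher, of 32 immediate-early genes 6 were lower, and of 21 antioxidant genes 2 were higher and 3 lower. For the 15 class II genes the median was 0.41, or 0.15 with each cell given equal weight.

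The genes with the highest and lowest ratios were next listed without regard to function. The 10 highest in UV over CON, taken from genes with 100 or more UMIs in the 2 libraries and a mean level of 50 CPM or more, were Apol7c, Dcn, Hmox1, Krt16, Cxcl1, Ly75, Stat5b, Ramp3, Clec10a and Slc7a11. Ly75, the antigen uptake receptor DEC-205, was at 68.0, 227 and 178 CPM in 11, 10 and 11 members, and Ramp3, a partner of peptide hormone receptors, at 89.7, 286 and 462 in 21, 24 and 36 members. Dcn is a fibroblast matrix gene and Krt16 a keratin, and 88.8% of the Krt16 UMIs of UV lay in 1 cell. The list thus mixed genes known in dendritic cells with genes of other skin cells.

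The 10 lowest in UV over CON were Lor, Crct1, Krtdap, Asprv1, Wfdc21, Fam25c, Calm4, Cst6, Ly6d and Nrg1. Most of these are genes of the upper epidermis. For 9 of the 10 over 50% of the CON UMIs lay in 1 cell, and 7 had their highest count in the same CON member of 16387 UMIs. Lor, which encodes loricrin of the cornified layer, had 1113 UMIs in CON, 99.4% of them in 1 cell, and none in UV, so it was at least 300.4-fold higher in CON against a floor of 3 UMIs. Without the cell with the most UMIs of the gene in each library all 10 ratios kept their sign, with values from -6.90 for Cst6 to -2.02 for Crct1. 

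In Rux over UV the 10 highest were Retnla, Ifitm1, Fabp4, Runx2, Fn1, Il1r2, Gramd1b, Arhgap24, Itgav and Clec4e. Retnla (99.6%), Fabp4 (95.5%) and Arhgap24 (56.6%) had most of their Rux UMIs in 1 cell. Gramd1b was at 1.58 with all members and at 0.01 without those that carried skin-cell transcripts. With the marker groups weighted as in CON Fn1 was at 0.95, Itgav at 0.80 and Clec4e at 0.75. Il1r2, the decoy receptor of interleukin 1, was at 139 CPM in 29 CON members, 204 in 25 UV members and 770 in 39 Rux members, 1.91 (1.62 to 2.22) higher in Rux than in UV. Runx2 was at 53.5, 44.7 and 221 in 15, 13 and 31 members, 2.28 (1.69 to 2.98) higher in Rux over UV. Itgav, an integrin chain, was at 83.9, 82.2 and 238 in 20, 17 and 29 members. For Il1r2, Runx2 and Itgav CON and UV lay closer to each other than either did to Rux.

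The 10 lowest in Rux over UV were Tm4sf1, Selp, Krt16, Mctp1, Hmox1, Igfbp7, Kitl, Edil3, Sfn and Efna5. For 8 of them over 50% of the UV UMIs were in 1 cell, and 4 had their highest count in the UV member with 69424 UMIs. Tm4sf1 and Selp, genes of endothelial cells, were at 181, 406 and 18.3 and at 575, 500 and 24.4 CPM. Selp was at 0.12 in Rux over UV without skin-cell members.

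Many of the 2-fold differences named here depended on which members were kept and how they were weighted. Other H2-Aa thresholds, the Cd207 criterion, a looser cell filter and thinning were not run for single genes, which left at most 11 alternatives. Of 55 named genes past 2-fold in UV over CON 26 stayed past it, with the same sign, under each of these alternatives that gave a value. The other 29 did not under at least 1. For Rux over UV 16 of 50 stayed past it and 34 did not. Those that stayed in UV over CON included Apol7c, Pdcd1lg2, Il12b, Ccl22, Stat5b, Il2ra, Ly75, Clec10a, Irf4, Hmox1, Gclm and Slc7a11. The 10 lowest genes, from Lor to Nrg1, most of them of the upper epidermis, are also counted among the 26. Of these Lor, Crct1, Asprv1 and Wfdc21 gave a value under only 7 alternatives, so staying shows less for them. Among those that stayed in Rux over UV were Ifitm1, Irf4, Runx2, Il1r2, Ccr1, Clec4n, Hmox1, Gclc, Gclm and Parp14. Retnla, Iigp1 and Tm4sf1 are counted there too, but gave a value under only 7, 5 and 9 alternatives. Fos, Cd80, Socs3 and Tap1 were among the genes that did not stay past 2-fold.

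The members were last set beside the cells most like them, Cd207 cells (11, 7 and 10 cells with at least 5 UMIs of H2-Aa and 2 of Cd207) and macrophage-rule cells (120, 102 and 122 cells with at least 5 UMIs of H2-Aa and 3 of the 6 macrophage genes), both without Pdgfra or Cd3e. The members were 20.3%, 18.5% and 18.7% of the H2-Aa cells free of Pdgfra and Cd3e, so their share of these cells was similar in the 3 libraries. A gene is called apart where all 3 libraries of the members lay above, or below, all 3 libraries of the other cells. The gene filter used the members' own levels, and the rule chose all these cells, so the counts are a description. Of 5177 genes 745 (14.4%) lay above and 447 (8.63%) below the Cd207 cells, and 1103 (21.3%) above and 701 (13.5%) below the macrophage-rule cells.

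Against Cd207 cells the members were above in 9 of 16 cDC2 genes and 18 of 32 maturation genes and below in 6 of 15 class II genes. Cbfa2t3, a transcriptional corepressor, was at 171, 189 and 287 CPM in the members and 34.0, 11.4 and 84.7 in the Cd207 cells. Il4i1 had no UMI in the Cd207 cells, and Il12b was at 0, 0 and 5.64 there. Cd74 was at 18337, 18296 and 17077 in the Cd207 cells and H2-Ab1 at 9062, 9091 and 9058, both above every library of the members, and Cd9, a tetraspanin, at 1115, 800 and 796 against 619, 399 and 501. The Cd207 cells held only 117522, 87451 and 177193 UMIs, which limits what a count of 0 shows there.

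Against macrophage-rule cells the members were above in 21 of 32 maturation genes, 9 of 15 class II genes, 5 of 9 cDC1 genes and 17 of 19 ribosomal genes. They were below in 14 of 20 lysosome genes, 9 of 13 chemokines, 7 of 16 cDC2 genes, 5 of 8 pattern recognition receptors, 7 of 21 antioxidant genes and 12 of 32 immediate-early genes. Cd80 was at 162, 345 and 354 in the members and at 84.7, 50.8 and 66.8 in the macrophage-rule cells, and Traf1, an adaptor of TNF receptors, at 342, 450 and 669 against 133, 200 and 283. Lyz2 was at 4080, 6357 and 6974 in the macrophage-rule cells and Cd14, the endotoxin coreceptor, at 1226, 1268 and 1641 against 245, 331 and 392 in the members. Ccl2 was at 3285, 1799 and 2285 there. The cDC2 genes that were lower in the members, among them Sirpa and Itgam, are ones that macrophages express as well.

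Ifitm1 was at 19.4, 50.8 and 171 CPM in the macrophage-rule cells and at 25.5, 11.4 and 0 in the Cd207 cells, so the highest of the 9 values, 1721, was in the members of Rux. Cd80, lowest in CON among the members, was at 111, 126 and 113 in the Cd207 cells and highest in CON in the macrophage-rule cells. These differences between the kinds of cell were not tested.

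**Figure D5:**
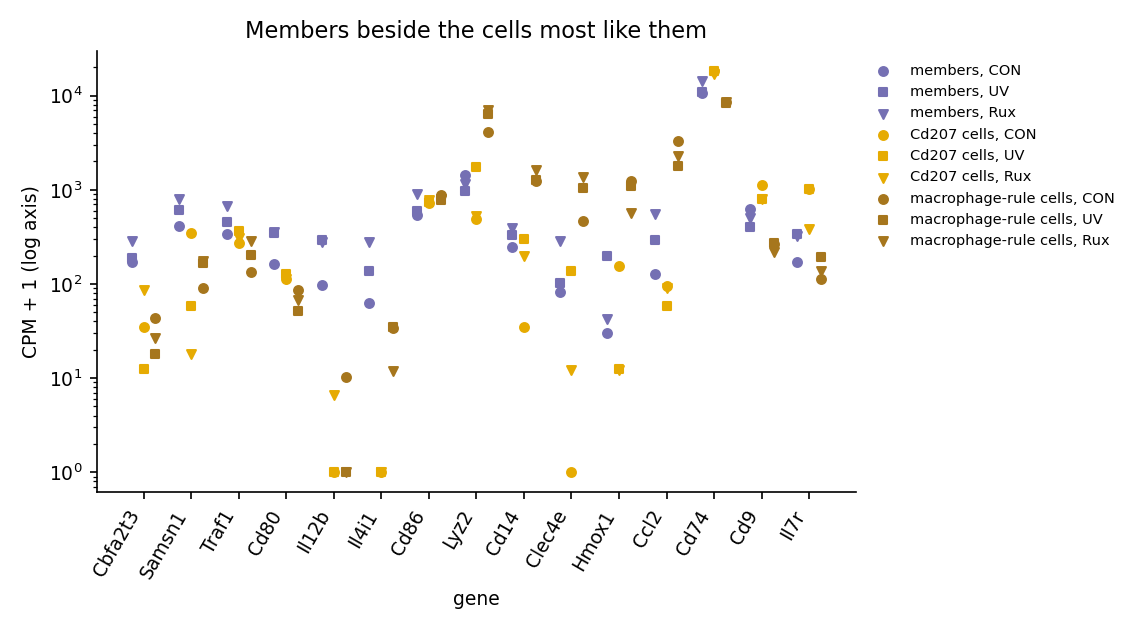
Levels of 15 genes in members, Cd207 cells and macrophage-rule cells of each library, in CPM plus 1 on a log axis. Cd80 and Il4i1 of the members lay above both other kinds of cell in all 3 libraries, Cd74 lay between them, and Cd14, Clec4e, Hmox1 and Ccl2 lay below the macrophage-rule cells.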

How the data were processed

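Per the labels, the authors aligned reads with Cell Ranger to the mouse genome and deposited filtered count matrices (whole UMI counts per gene and cell). The file headers name Cell Ranger 7.0.0 and the labels 6.1.2. The deposited counts were used as they are, over 32285 genes. Cells were kept and members chosen by the rule given with the results, in Python 3.11.15 with numpy 2.4.6, scipy 1.17.1, pandas 2.3.3 and, for Scrublet doublet scores, scanpy 1.11.5. The top scores were marked at a rate of 0.8% per 1000 cells, and marked members were not removed. Counts were summed over members per library, scaled to CPM, and compared as log2 ratios with 0.5 UMI added. Exact binomial intervals cover counting error only. The ratio step was tested on simulated sums per library, and summing over cells was not part of that test. With 1 library per condition there was no test. Gene positions are from GENCODE M21 on GRCm38, matched by gene ID for 32158 genes. The members and gene lists were chosen with earlier results of these data known. The text names the rule's genes, the most abundant and most extreme genes of each list, and the 10 highest and lowest ratios, and other genes after their values were seen. Cxx1b, Clec7a, Clec6a, Mx1 and Mx2 were on the lists and were not analysed under these symbols. Alternatives to the cell filter, the H2-Aa and marker thresholds, the macrophage and Cd207 criteria, doublets, depth, weighting and gene filter are given at the end.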

Additional observations from a re-analysis of the deposited data

Results flagged for a closer look

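In 3 genes the members of all libraries compared went one way between conditions and the cells most like them went the other. The differences were not tested. For Rux over UV the log2 ratio of Fabp4, a fatty acid binding protein, was 2.62 in the members and -3.43 in the macrophage-rule cells, and without the cell with the most Fabp4 UMIs in each library the members' value was -0.92. For Rux over UV that of Itgav was 1.52 in the members and -1.36 in the Cd207 cells. For UV over CON that of Nrg1, a growth factor for ERBB receptors, was -4.91 in the members, where 85.6% of the CON UMIs lay in 1 cell, and 1.38 in the macrophage-rule cells.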

How the results depend on the processing

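No paired analysis was possible because the labels carry no replicate numbers and each condition had 1 library. Of the alternatives 2 were chosen after seeing the data, the removal of members with skin-cell transcripts and of the member with the most UMIs. Of 1102 alternative values of single gene ratios 892 stayed within the counting interval, 189 moved and 21 changed sign. Of 528 list medians 485 were counted as the same and 43 as moved, but a list median has no counting interval. Some medians changed sign. That of class II in UV over CON was 0.12, but -0.13 without skin-cell members. That of chemokines in Rux over UV was 0.44, but -0.59 with marker groups weighted as in CON.
The share of members was 0.257% in CON and 0.229% in UV with at least 3 of the 7 markers, 0.150%, 0.141% and 0.158% (CON, UV, Rux) with none of the 6 macrophage genes, 0.257%, 0.282% and 0.365% without skin-cell members, and 0.0332%, 0.0353% and 0.0493% without members that carried transcripts of any other lineage. The last left 4, 4 and 5 members and 351 genes, too few for single genes or lists, which were not run. Of the marker groups, the Xcr1 or Clec9a share was then 0% in CON and UV. The Cd209a-only share was 22.6% in CON with at least 3 markers, 11.1%, 0% and 12.5% with no macrophage gene, and 50% in UV and 0% in Rux without other lineages. The Ccr7-only share was 33.3% in CON with no macrophage gene, 50% in CON without other lineages and 43.2% in Rux after thinning to 3000 UMIs, where the share with several markers was 20%, 39.3% and 32.4%. The share with none of these markers was 0% in CON under these 4 settings, 25% and 0% in UV with no macrophage gene and without other lineages, and 2.56%, 40.0% and 2.70% in Rux with at least 3 markers, without other lineages and after thinning.
Genes 2-fold higher and lower in UV over CON numbered 404 and 779 with a lower gene filter, and 28 and 38 without other lineages; lower genes numbered 147 without skin-cell members and 184 with no macrophage gene. In Rux over UV higher and lower genes numbered 454 and 883 with the lower filter, 260 and 578 with marker groups weighted as in CON, 31 and 28 without other lineages and 111 and 175 without skin-cell members, and lower genes 170 with no macrophage gene and 216 without doublets. Fewer genes passed the filter in some of these, 2552 with no macrophage gene, 3288 without skin-cell members and 4115 without doublets.
Signs changed in UV over CON for Ccl2 (-0.64 with at least 3 markers, -0.25 with no macrophage gene, -0.24 without its top cells), Csf1 (-0.15 with at least 3 markers), Rsad2 (-0.98 with at least 3 markers) and Krt16 (-0.37 with no macrophage gene, -1.31 without doublets, -0.60 without skin-cell members, -0.039 without the member with the most UMIs, -0.029 without its top cells). They changed in Rux over UV for Csf1 (-2.97 with no macrophage gene, -0.043 without its top cells), Fabp4 (-2.53 and -0.92, likewise), Fn1 (-0.34) and Kitl (0.38) with no macrophage gene, Igfbp7 (1.63) and Selp (0.53) with at least 3 markers, Selp (0.12) and Sfn (0.48) without skin-cell members, and Sfn (0.60) without doublets. The causes were not tested. Over the alternatives run for single genes the ratio in Rux over UV was 2.79 to 3.33 for Ifitm1 and 2.09 to 3.42 for Irf4. In UV over CON it was 0.93 to 1.44 for Cd80 and -2.29 to -0.61 for Fos. With 39 to 47 members per library, a gene found in a few cells rests on those cells.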
